A study of Mus musculus with 23 samples.

Results

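The cytoplasmic ribosomal protein genes were followed in liver RNA of mice that had inhaled filtered air, carbon black (CB) or diesel exhaust particles (DEP). They were chosen by gene symbol alone: Rpl or Rps followed by digits and at most 1 of the letters a, l, x or y, together with Rplp0, Rplp1, Rplp2 and Rpsa, with the ribosomal S6 kinases left out. The rule found 65 genes among the 16887 genes with a feature of their own, on 71 of the 18688 features with a listed gene. Of these, 40 belong to the large (60S) subunit and 25 to the small (40S) subunit. For the 6 genes with a second feature the brighter of the pair was used, and Rplp2, Rps27a, Rpl3l and Rpl10l had no feature under the rule. The air group held 8 female C57BL/6 mice, the CB group 8 and the DEP group 7, with 1 array per mouse. The CB mice breathed Printex 90 and the DEP mice a standard reference material of diesel soot, both at 20 mg/m3 for 90 min on 4 consecutive days. Per the labels the mice were 12 to 13 weeks old and the whole liver was taken 90 min after exposure, while the study's methods give a slightly younger age and a shorter interval. No altered allele or further treatment is listed for any group. Liver RNA carried Cy5 and a universal mouse reference RNA carried Cy3 on every array, so that each value is a log2 ratio of liver to reference, made by loess within each array from the deposited intensities.

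Each ribosome is built of ribosomal RNA and a large set of different proteins, nearly all needed in equal copy number, and their mRNAs are among the most abundant of any cell. Most of these mRNAs begin with a run of pyrimidines, the 5′ terminal oligopyrimidine tract, through which the mTOR pathway sets how well they are translated. Their control is known to act largely on translation, which an array of total mRNA does not see. Several proteins also have duties outside the ribosome: Rpl5 and Rpl11, bound to the 5S ribosomal RNA, restrain Mdm2 and so stabilise p53.

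To show what the tract looks like, and that annotated starts do not always carry it, the bases from 10 before to 20 after the annotated start are given for 6 genes that the results below turn on. The sequences are from RefSeq (GRCm38.p6), read 5′ to 3′ on the strand of the gene, and capitals mark the unbroken run of C and T that begins at the start. Rpl14 lies at chr9:120571507-120571536 (plus strand), Rpl35a at chr16:33056472-33056501 (plus), Rps6 at chr4:86857348-86857377 (minus) and Rps18 at chr17:33955646-33955675 (minus). Rpl23, at chr11:97782420-97782449 (minus), and Rps27l, at chr9:66946076-66946105 (plus), had no C or T at the annotated start.
Rpl14: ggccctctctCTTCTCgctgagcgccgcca
Rpl35a: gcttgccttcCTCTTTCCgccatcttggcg
Rps6: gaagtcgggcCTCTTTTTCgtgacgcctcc
Rps18: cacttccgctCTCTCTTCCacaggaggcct
Rpl23: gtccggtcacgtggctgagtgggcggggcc
Rps27l: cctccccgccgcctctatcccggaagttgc
Of the 65 genes, 52 matched the RefSeq table, with 63 annotated starts on 17 chromosomes. A pyrimidine stood at each of the first 5 bases at 14 of these starts (22.2%), against 4.44% of all 32851 starts in the table. The letters CCGGAAG, the core recognised by ETS family transcription factors, were searched on both strands of the 300 bases around each start. They were found at 25 of the 63 starts (39.7%) and at 8.86% of all starts. Rps27l carries them just after the start printed above. A match describes the sequence alone, and the array holds no data on binding.

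Markers bore out the labelled tissue: all 12 hepatocyte markers with a feature, of 14 listed, were flagged present on all arrays. Their median log2 ratio in the middle mouse was 4.55 for air, 4.32 for CB and 4.29 for DEP. Most of them had Cy5 at the highest value of the scanner on some arrays, and Alb, Apoa2 and Fgb on all 23. These medians are therefore not measured levels and do not compare the groups. Ttr and Hnf4a, never at that value in Cy5, had mean log2 ratios of 5.28 and 1.22 in air. The median Cy5 signal of an array over features with a listed gene was 262 to 549. Exposure had run in 3 rounds. Round 1 held 2 air, 1 CB and 1 DEP mice, round 2 held 4, 6 and 2, and round 3 held 2, 1 and 4. The arrays fell into 5 sets, spread unevenly over the groups. Set 1 held 2 air, 1 CB and 0 DEP mice, and set 4 held 0, 2 and 1. Beyond round and array set, nothing in the labels says more of the replicates than that each is 1 mouse. Precision is limited by how many arrays there were.

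The signals of most ribosomal protein genes lay at or near the top of the range of the scanner, whose highest value was 65535 in either channel. Over 65 genes and 23 arrays there were 1495 spots. Cy5 stood at the maximum on 429 (28.7%) and Cy3 on 816 (54.6%), and both channels on 424. Over all features these shares were 0.872% in Cy5 and 0.297% in Cy3. The reference channel was at the maximum on more arrays than the liver channel for 44 genes, and on fewer for 4. Of the 65 genes, 11 had Cy3 at the maximum on all 23 arrays, of which Rps16 and Rps18 had Cy5 there too. At the other end, 14 genes never reached the maximum in either channel and 8 did so on 1 or 2 arrays. These 22 genes are called the measured members below: 15 of the large subunit (Rpl4, Rpl7a, Rpl10, Rpl10a, Rpl13a, Rpl14, Rpl15, Rpl23, Rpl24, Rpl27a, Rpl29, Rpl31, Rpl35a, Rpl37 and Rpl39l) and 7 of the small subunit (Rps3, Rps9, Rps10, Rps15, Rps19, Rps25 and Rps27l). The other 43 had a saturated spot on 3 or more arrays, and a ratio with a channel at its maximum is not a measured ratio.

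**Figure D1:**
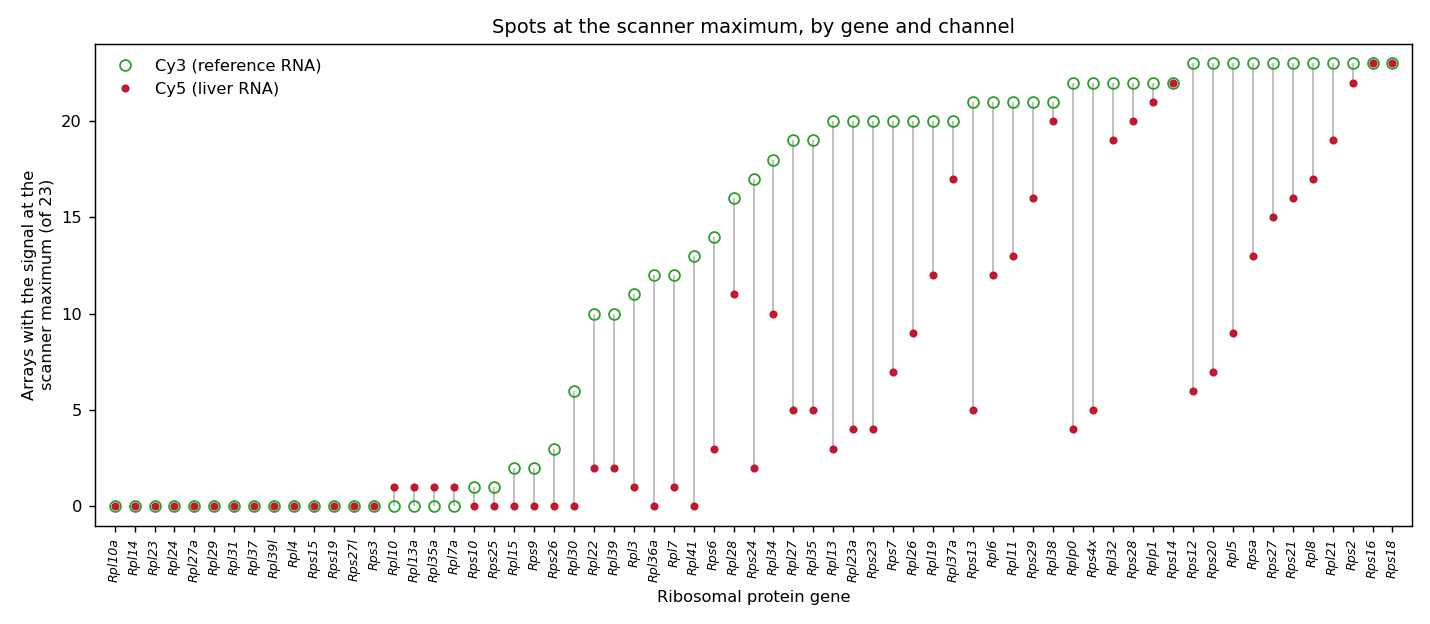
Number of arrays, of 23, on which the Cy5 (liver, filled) and the Cy3 (reference, open) signal stood at the scanner maximum, for each of the 65 genes in order of the Cy3 count. The 14 genes at the left never reached it, and Rps16 and Rps18 at the right were there in both channels on all 23 arrays.

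The best known members were among the saturated ones. Rplp0 and Rplp1, the proteins of the P stalk that recruits elongation factors, had Cy3 at the maximum on 22 arrays each, and Cy5 on 4 and 21. The Cy5 signal of Rplp0 ranged from 29178 to the maximum (median 58216) in air mice, from 25720 to the maximum (median 36837) in CB mice and from 1463 to the maximum (median 44842) in DEP mice. The groups overlapped from the lowest air value upward, and the lowest DEP value lay far below all others. Rpsa, a protein of the small subunit that is also known as the laminin receptor, had Cy5 at the maximum on 7 air, 2 CB and 4 DEP arrays and Cy3 on all 23. Rps6, the substrate of the S6 kinases, had Cy5 there on 3 arrays and Cy3 on 14. Its log2 ratio had an SD within the groups of 0.66, that of Rps24, a small-subunit protein mutated in Diamond-Blackfan anaemia, 0.59 and that of Rpl23a, at the exit of the peptide tunnel, 0.57. With Cy3 at the maximum on 14, 17 and 20 arrays these are not measured spreads. Rpl5 and Rpl11, the partners of 5S RNA, had Cy5 at the maximum on 9 and 13 arrays and Cy3 on 23 and 21. Rps14, of the small subunit platform, was at the maximum on 22 arrays in each channel. Rps16 and Rps18, proteins of the small subunit head, gave constant signals, so that their ratio carries no information on these genes. Loess nevertheless assigned that constant pair a log2 ratio of −1.20 to −0.14 on the 23 arrays. The lowest values were on the arrays of DEP mouse 835435 (−1.20) and CB mouse 47 (−1.18). The group difference was 0.08 for CB minus air and −0.08 for DEP minus air. The latter was 0.0029 without DEP mouse 835435.

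Against the reference RNA, the ribosomal protein mRNAs stood low in liver. In the air group the mean log2 ratio of the 22 measured members ran from −2.64 to 0.49 with a median of −1.14, and 21 of the 22 were below 0. The median over all 16887 genes was 0.03, and 9.58% of genes lay below the median of the measured members. The 76 mitochondrial ribosomal proteins, encoded in the nucleus for the separate ribosome of that organelle, had a median of 0.10, with 31 below 0. A low ratio here means less in liver than in the reference relative to the other genes of the array, not a scarce mRNA, and with the dyes never exchanged it cannot be told apart from a difference between the dyes. Fewer cells of a type and less RNA per cell cannot be told apart in whole liver.

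Rpl14, a large-subunit protein (NM_025974), had the lowest ratio of the 22 measured members. Its log2 ratio in the air group had a lowest value of −2.82, a median of −2.62 and a highest of −2.39. All 8 mice lay below those of every other measured member, and the gap to the next gene, Rps19, was 0.56 against a larger SD of 0.22. Rps19, the protein most often mutated in Diamond-Blackfan anaemia, was at −2.08 ± 0.22 (SD, n = 8 mice) and Rpl10a, of the stalk at the other side of the large subunit, at −2.02 ± 0.19 (SD, n = 8 mice). Rpl36a and Rpl30, with Cy3 at the maximum on 12 and 6 arrays and Cy5 on 0, were also among the 5 lowest, at −2.07 and −1.81. At the top, Rps27l stood apart. This paralogue of Rps27, a target of p53, was at 0.49 ± 0.23 (SD, n = 8 mice) and exceeded the next, Rpl13a (−0.28 ± 0.19, SD, n = 8 mice), by 0.77. Rpl37 (−0.42 ± 0.31, SD, n = 8 mice) and Rpl35a (−0.58 ± 0.20, SD, n = 8 mice) followed. Rplp1, the last of the 5 highest at −0.61, was at the maximum in both channels on all 8 air arrays and so has no measured level. Of the 21 gaps between neighbours in the order of the measured members, 3 exceeded the larger SD of the pair: Rps27l above Rpl13a, Rps9 above Rpl10a and Rps19 above Rpl14. All other neighbours lay within their spread. Rpl39l, a paralogue of Rpl39 best known from testis, was dim, with a median Cy5 signal of 241 in the air group and a flag of absence in Cy5 on 8 arrays. Rpl37 was dimmer still and was flagged absent in Cy5 on 12 arrays. With the ratios the authors deposited, all 22 were below 0, Rps27l included at −0.10, and the median was −1.59. The direction of Rps27l against the reference therefore depends on the normalisation.

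**Figure D2:**
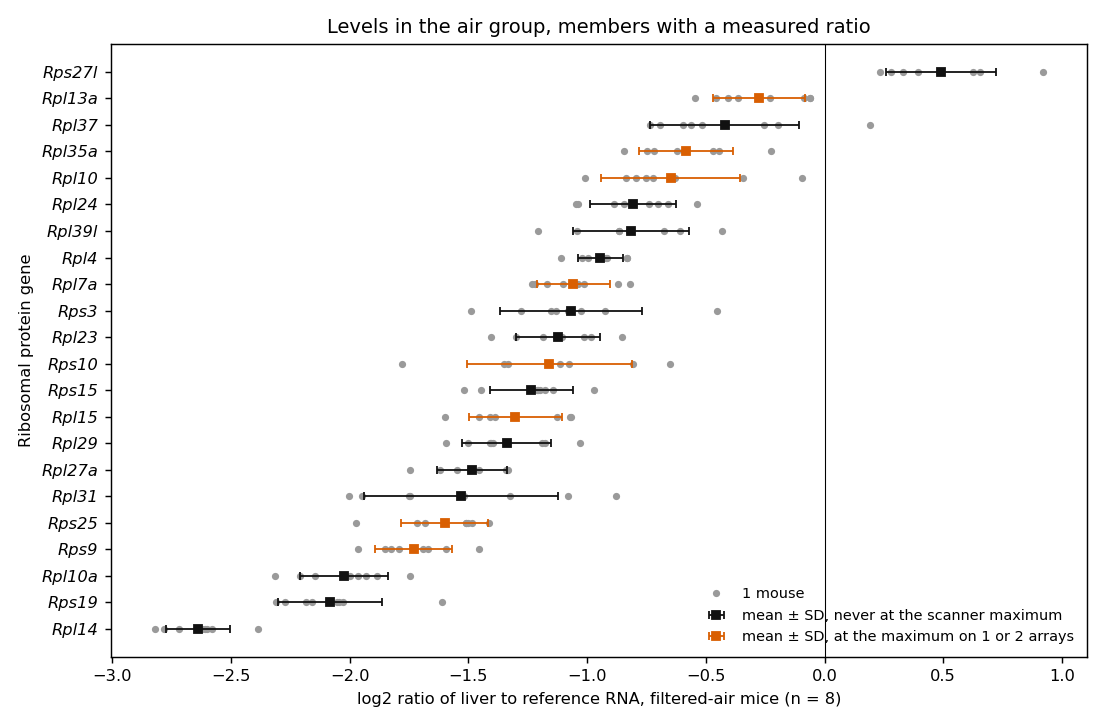
Log2 ratio of liver to reference RNA in the 8 filtered-air mice for the 22 measured members, with single mice as grey points and the mean ± SD as squares, black for genes never at the scanner maximum and orange for genes there on 1 or 2 arrays. Rps27l (0.49) lies above 0 and Rpl14 (−2.64) lowest, with most neighbours inside each other's SD.

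The first question of the design is whether inhaled CB altered these mRNAs in liver. Among 63 genes with a fold change (Rps16 and Rps18 left out) limma called 0 at an adjusted p under 0.05, and it called 0 of all 18688 features (0.0%). At an unadjusted p under 0.05 there were 2 of the 63, Rpl23 and Rpl13a, and 5.94% of all features. The ratio was lower after CB for 38 of the 63 and for 49.8% of all features. Without CB mouse 47 it was lower for 27 and without CB mouse 48 for 29, and the median of the 63 turned from −0.03 to 0.02 in both cases. Without CB mouse 58 it was lower for 43. Over all fits that left out 1 mouse the count ran from 27 to 46. Of the 22 measured members 14 were lower, with a median log2 fold change of −0.05 and a range of −0.33 to 0.26. By subunit these were 9 of 15 in the large and 5 of 7 in the small. The 95% intervals of these 22 together spanned −0.64 to 0.62, and 18 of them lay wholly within 0.5 of 0.

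Rpl23 (NM_022891), at the interface between the subunits, had the smallest p after CB. Its log2 ratio ran from −1.41 to −0.86 in air mice (median −1.12), from −1.77 to −1.11 in CB mice (median −1.44) and from −1.37 to −1.15 in DEP mice (median −1.26). The groups overlapped: 5 of the 8 CB mice lay below the lowest air mouse and 3 within the air range, while all 7 DEP mice lay within it. CB mice differed from air by −0.30 on the log2 scale (standard error, SE, 0.09, with a limma adjusted p of 0.621 and an unadjusted p of 0.00328). DEP mice differed by −0.14 (SE 0.09, limma adjusted p = 0.997). The value after CB was −0.27 with round as a block, within round 2 −0.32 and within round 3 −0.23, and in round 1 the CB mouse lay 0.12 below the mean of the air mice. Rounds 1 and 3 held 1 CB mouse each. Leaving out each mouse in turn kept the value between −0.34 and −0.25. Without loess, with each array centred on its median, it was −0.62 and was called, as were 285 of all features, while the median of all features lay at −0.11. In the reference channel alone Rpl23 differed by 0.33, although that channel held the same RNA on every array, and in the liver channel alone by −0.18. A second feature listed for Rpl23 gave −0.16 (SE 0.24) after CB. It stood at 0.39 in the air group against −1.12, and which of the pair measures the Rpl23 mRNA was not settled.

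Rpl13a, a protein of the large subunit that is often used as a reference gene in PCR, had a log2 ratio of −0.55 to −0.06 in air mice (median −0.30), −0.92 to −0.08 in CB mice (median −0.72) and −1.38 to 0.03 in DEP mice (median −0.30). After CB 5 of 8 mice lay below the air range. CB mice differed from air by −0.33 (SE 0.15, limma adjusted p = 0.838) and DEP mice by −0.14 (SE 0.16), or 0.02 without DEP mouse 835435. The CB value was −0.57 within round 2 and −0.03 within round 3, while the CB mouse of round 1 lay 0.26 above the mean of its air mice, so that the direction differed between the rounds. The spot was dim in both channels on the array of air mouse 54, with a Cy5 signal of 503 against a median of 33451 over all arrays, and on that of DEP mouse 55. The liver channel alone gave a difference of log2 means of 0.47 after CB, opposite in sign to the ratio. The air mean behind it included the dim spot of mouse 54. The median Cy5 signal itself was 41677 in air mice and 28324 in CB mice, the same direction as the ratio. Rpl35a, another Diamond-Blackfan anaemia gene, ran from −0.84 to −0.23 in air mice (median −0.61), −1.11 to −0.17 in CB mice (median −0.91) and −1.50 to −0.14 in DEP mice (median −0.49). CB mice differed from air by −0.23 (SE 0.16, limma adjusted p = 0.888).

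Rps27l was split within the CB group. Its log2 ratio ran from 0.23 to 0.92 in the air group (median 0.44), and 5 CB mice lay between 0.06 and 0.17, below every air mouse, while the other 3 lay between 0.65 and 0.66. The 7 DEP mice lay between 0.07 and 0.60. The difference from air was −0.18 (SE 0.12, limma adjusted p = 0.888). The 3 high mice came from rounds 1 and 2 and the 5 low ones from rounds 2 and 3. Rps19 gave 0.26 (SE 0.18, limma adjusted p = 0.888), with −2.31 to −1.61 in the air group (median −2.11) and −2.34 to −0.60 in the CB group (median −2.06). The highest CB value belonged to mouse 58, whose spot was dim in both channels (Cy5 195, against a median of 4094), and without that mouse the log2 fold change was 0.08. Rps15, of the small subunit head, gave −0.13 (SE 0.10, limma adjusted p = 0.891) and Rpl14 gave 0.12 (SE 0.08, limma adjusted p = 0.888).

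**Figure D3:**
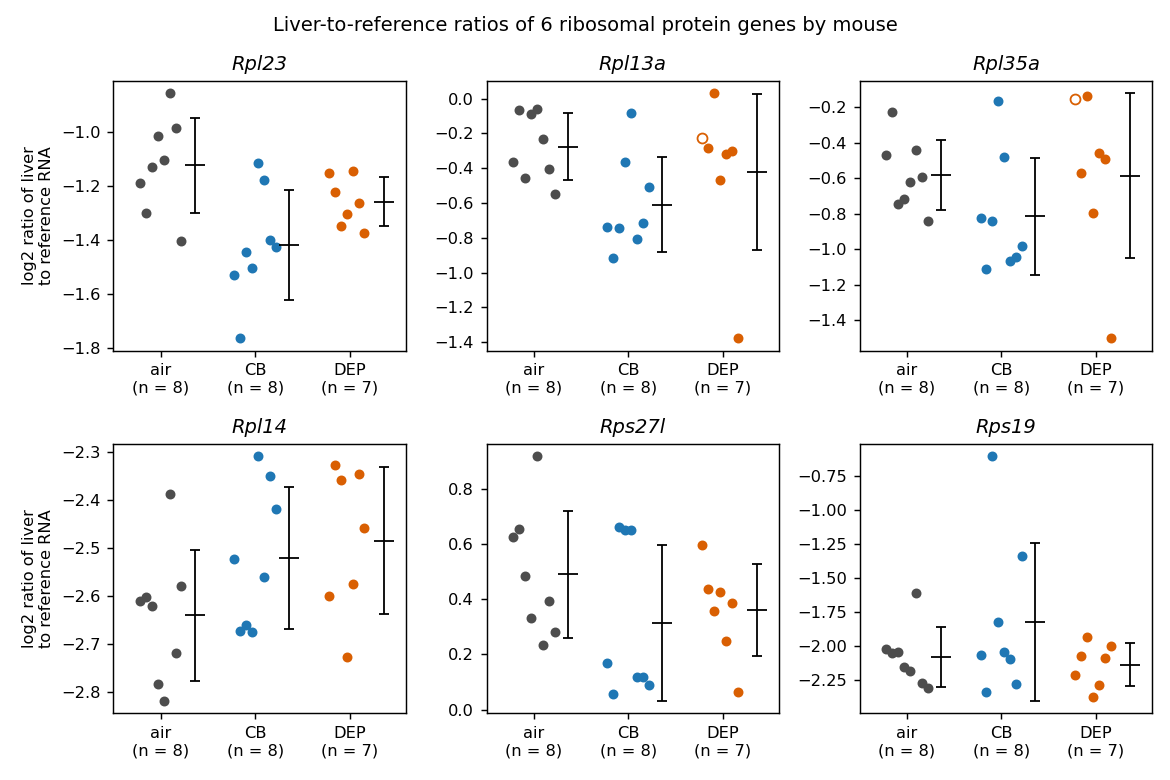
Log2 ratio of liver to reference RNA of Rpl23, Rpl13a, Rpl35a, Rpl14, Rps27l and Rps19 in each of the 8 air, 8 CB and 7 DEP mice, with the mean ± SD beside the points and open points for spots at the scanner maximum. The groups overlap for every gene, and 5 of 8 CB mice lie below the air range for Rpl23, Rpl13a and Rps27l.

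The same question for DEP gave 0 of 63 genes and 0 of 18688 features (0.0%) at an adjusted p under 0.05 by limma. At an unadjusted p under 0.05 there were 0 of the 63 and 4.82% of all features. CB minus air and DEP minus air share their air mice, so their values are given side by side only. Among the measured members 13 of 22 were lower after DEP, with a median log2 fold change of −0.04 and a range of −0.14 to 0.19. This count rested in part on 1 mouse and its array. DEP mouse 835435 had the lowest ratio of its group for 14 of the 22. Without that mouse the median was 0.03 and the count was 9 of 22. Without air mouse 443 it was 10 of 22. The 95% intervals spanned −0.46 to 0.52, and 21 of 22 lay wholly within 0.5 of 0. The smallest p of a measured member belonged to Rpl14, at −2.73 to −2.33 in the DEP group (median −2.46) against −2.82 to −2.39 in the air group. The difference from air was 0.16 (SE 0.09, limma adjusted p = 0.997), and 3 of the 7 DEP mice lay above the air range. Blocked by round it was 0.17, with 0.24 within round 2 and 0.12 within round 3. Rpl10a had the largest value among the measured members, 0.19 (SE 0.16).

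Over all members 47 of 63 were lower after DEP than in air (median −0.08), against 50.0% of all features. This count rested on 1 mouse and its array. DEP mouse 835435 had the lowest ratio of its group for 54 of the 65 genes. Its array was the least saturated, with Cy3 at the maximum for 20 genes and 45 genes free of saturation. The medians over all arrays were 36 and 29. The array of CB mouse 47 was next, with 21 and 43. Whether a trait of these arrays or of the mice lay behind their ratios was not tested. Without it 25 of the 63 were lower and the median was 0.03. Of the 41 genes with a saturated spot on 3 or more arrays and some unsaturated signal, 34 were lower (median −0.13), of the 22 measured members 13 (median −0.04), and of the 14 that never reached the maximum 9 (median −0.05). Without that mouse the counts were 16 of 41 (median 0.03), 9 of 22 (median 0.03) and 9 of 14 (median −0.04), and the often saturated genes no longer stood apart from the measured ones. After CB, 24 of the 41, 14 of the 22 and 7 of the 14 were lower, with medians of −0.01, −0.05 and 0.01. Without CB mouse 47 or 48 the first count was 14 or 15, and over all fits without 1 mouse it ran from 14 to 31. The members with the smallest p after DEP were mostly of the saturated kind. Rpl19, beside the exit tunnel, gave −0.44 (SE 0.23, limma adjusted p = 0.997) with Cy5 at the maximum on 12 and Cy3 on 20 of the arrays. Without DEP mouse 835435 it was −0.25. Rplp0 gave −0.39 (SE 0.26), or −0.18 without that mouse, with Cy3 at the maximum on 22 arrays, and its second feature, which Cy5 never saturated, gave 0.06 (SE 0.12). The Rplp0 spot was dim in both channels on the array of DEP mouse 55. The values of Rpl19 and Rplp0 are not measured fold changes. Rpl5, Rplp1, Rpl35 and Rpl7 completed the 8 smallest p-values together with Rpl14 and Rpl23, and all 4 had Cy3 at the maximum on 12 or more arrays.

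**Figure D4:**
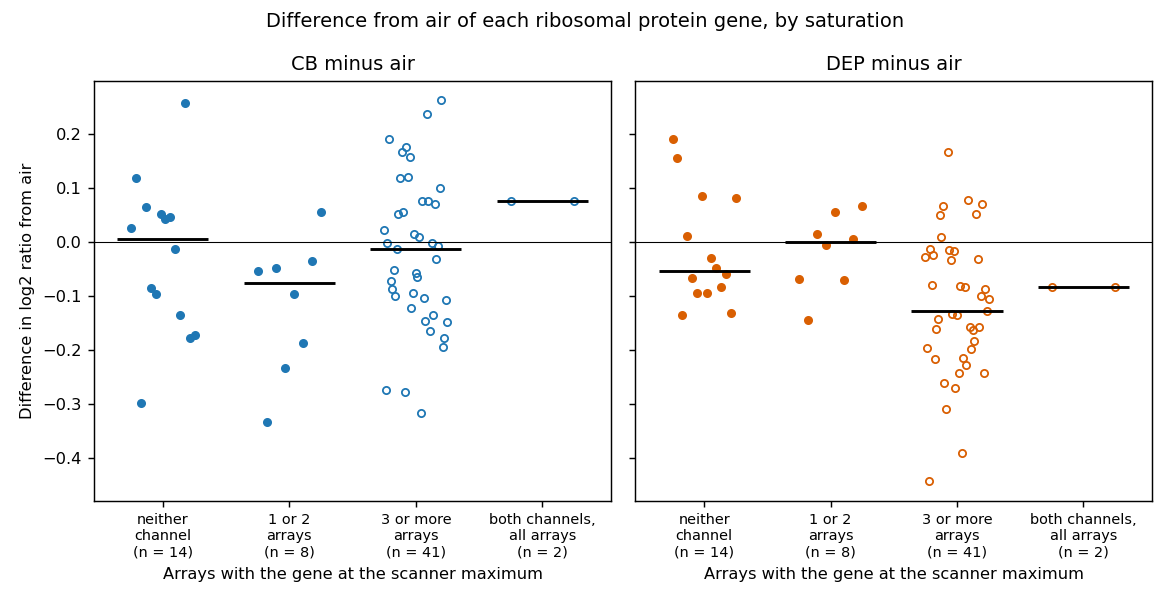
Difference in log2 ratio from air of each ribosomal protein gene after CB (left) and DEP (right), by the number of arrays with a saturated spot, with bars at the medians and open points for genes with 3 or more such arrays. After DEP the median was −0.05 for the 14 genes never saturated and −0.13 for the 41 often saturated, but without DEP mouse 835435 these medians were −0.04 and 0.03.

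Every spot with either channel at the maximum was also set aside, a choice made after the data had been seen. This left 674 of the 1495 spots. Genes with no spot left in a group, such as Rps7 in air, had no fit against air and could not be called. For Rpl37a and Rpl23a 1 mouse per group was left. Among the members still fitted limma called 0 after CB and 0 after DEP, as it did of 18593 and 18596 features. For the often saturated genes this is not a negative result. Setting such spots aside selects mice by their signal, so no single value from this fit is given.

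Between the particles, limma called 0 of 63 genes and 0 of all features (0.0%), and 0 of 63 genes and 3.44% of all features had an unadjusted p under 0.05. The measured members were lower after CB than after DEP in 16 of 22 cases, with a median difference of −0.04. The count was 18 of 22 without DEP mouse 835435 (median −0.09) and 13 of 22 without CB mouse 47 (median −0.04). Of all 63 genes 22 were lower (median 0.03), and of the 41 often saturated genes 6 (median 0.08). Without DEP mouse 835435 these counts were 46 and 28, and without CB mouse 47 they were 15 and 2. Over all features 50.1% were lower. The interval of the difference spanned −0.57 to 0.69 over the 22 genes, and 18 intervals lay within 0.5 of 0. Rps3, a small-subunit protein that also acts in DNA repair, gave −0.25 (SE 0.13) and Rps19 gave 0.32 (SE 0.18, limma adjusted p = 1.000), or 0.14 (SE 0.13) without CB mouse 58 and its dim spot. For both particle groups together against air, 0 of 63 were called and 0 of all features (0.0%), and Rpl23 (−0.22, limma adjusted p = 0.773) was the 1 member at an unadjusted p under 0.05, against 6.04% of all features.

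The genes around the ribosome showed 0 calls as well. The lists had 49.8% of all features below 0 after CB and 50.0% after DEP to be read against. Of 76 mitochondrial ribosomal proteins 34 were lower after CB and 30 after DEP, with Mrpl27 at −0.34 (SE 0.11, limma adjusted p = 0.647) and Mrps22 at 0.30 (SE 0.10, limma adjusted p = 0.720) after CB. Of 36 measured translation initiation factors 18 and 19 were lower. Eif4e, which binds the mRNA cap, gave 0.31 (SE 0.12, limma adjusted p = 0.816) after CB, and Eif2b3, a subunit of the exchange factor of eIF2, gave −0.39 (SE 0.13, limma adjusted p = 0.997) after DEP. Of 8 elongation factors 4 were lower after either particle. Of 35 ribosome biogenesis genes 19 and 16 were lower, with Nvl, an ATPase needed for the large subunit, at 0.47 (SE 0.12, limma adjusted p = 0.621) after CB. The study itself, with a permutation test and adjusted p-values, listed Nvl as raised after CB, so the call differs from the one here. Normalisation, test and the set of features adjusted over all differed, and which of them changed the call was not tested. Of 10 genes of growth control 5 and 5 were lower, and Mtor, the kinase through which the tract is read, gave 0.27 (SE 0.12, limma adjusted p = 0.838) after CB. Within the family, 5 of 6 exit tunnel genes were lower after CB and 5 after DEP. Of these 6, 5 had saturated spots, and Rpl31, which had none, gave 0.05 and 0.09. The counts were 5 and 8 for 9 genes mutated in Diamond-Blackfan anaemia, of which 8 had saturated spots. All 6 genes listed as PCR reference genes (Rplp0, Rpl13a, Rpl19, Rpl32, Rps18 and Rps29) had at least 1 spot at the maximum. Of 4 ribosomal proteins that the symbol rule passes over 3 were lower after CB and 4 after DEP. Fau, with Cy3 at the maximum on all 23 arrays, gave 0.08 after CB and −0.11 after DEP, and Rpl36al (Cy5 at the maximum on 9 arrays), Rpl22l1 and Rpl7l1 gave −0.31, −0.28 and −0.06 after CB and −0.18, −0.25 and −0.11 after DEP.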

How the data were processed

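Liver RNA of 23 mice was hybridised on 2-colour oligonucleotide arrays. The authors scanned the arrays, quantified the spots and deposited an intensity for each channel, absence flags and log2 ratios after lowess in R 2.4.1. No background had been subtracted from the deposited intensities. Here loess was applied to these intensities on each array, using limma 3.58.1 in R 4.3.3, to give log2 ratios of liver (Cy5) to reference (Cy3) for 18688 features. The 3887 others, of 22575, list no gene and were left out. Groups were taken from the labels. A single linear model (limma, lmFit with eBayes) held the means of the 3 groups. Benjamini-Hochberg adjustment ran over all features, and 0.05 was the threshold. The fit was tested on simulated data. Saturated means at the highest value of the scanner, and genes with such spots on more than 2 arrays are not called measured. No array had the dyes exchanged.

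Per comparison with air the 8 genes with the smallest p were named, the 5 highest and 5 lowest by level in the air group, the 3 with the largest SD, those saturated throughout and genes of set roles. Up to 3 genes of each other list could be named, and Rps3, Rps9 and Rpl31 were added after their values were seen. The members and gene lists were chosen with earlier results of these data known. Fits were repeated with the deposited ratios, with median centring, with Aquantile, on either channel alone, after normexp (offset 50), after filtering dim features, without saturated spots, on gene means, with round or array set as a block, within single rounds, with array weights, on the compared groups only, at a threshold of 0.1 and without each mouse in turn.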

Additional observations from a re-analysis of the deposited data

Results flagged for a closer look

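Over the measured members, 56 groups of mice with no saturated spot were examined, and 3 held a mouse far from the others, and chance gives about 5% of such groups. In the CB group the lowest Rpl37 ratio was −0.91 (mouse 445), with the next mouse at −0.48. Rpl37 was flagged absent in Cy5 on 12 arrays. In the air group the highest Rps19 ratio was −1.61 (mouse 443), with the next at −2.03, and the Cy5 signal of Rps19 on that array, 761, was the lowest of the group. In the CB group the highest Rpl10 ratio was −0.27 (mouse 59), with the next at −0.67.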

How the results depend on the processing

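No member with a fit was called after either particle under any alternative except median centring, which called 1 member (Rpl23, −0.62) after CB. It called 285 of all 18688 features after CB. Median centring put 21 of the 22 measured members lower after CB and 19 after DEP. Of all 18688 features, it put 12551 lower after CB and 11429 after DEP. The median of the measured members was −0.34 after CB, −0.15 after DEP, −0.19 for CB minus DEP and −0.25 for both particle groups. The median of all features shifted to −0.11 after CB, to −0.04 after DEP and to −0.07 for each of the last 2 comparisons. Median centring turned Rps19 to −0.030 and Rpl14 to −0.19 after CB. With the reference channel alone 8 measured members were lower after CB, 7 after DEP, 8 between the particles and 8 for both. It gave 0.33 for Rpl23, 0.90 for Rpl13a, 0.22 for Rps27l, −0.66 for Rps19 and 0.45 for Rpl35a after CB, and 0.14 for Rpl23 and −0.0078 for Rpl14 after DEP. The liver channel alone gave 0.47 for Rpl13a, −0.58 for Rps19, 0.11 for Rpl35a and −0.066 for Rpl14 after CB. In either channel alone, the Rpl13a value included the dim spot of air mouse 54 and the Rps19 value that of CB mouse 58. Within round 2 8 of 22 were lower after DEP. With the deposited ratios Rps27l was at −0.10 and 18 other levels moved by more than 1 SD. The causes were not tested. In the comparison of settings, 460 summary values and 362 values of single genes were counted as the same. As moved were counted 9 summary values and 18 of single genes. Of the single-gene values 14 were counted as reversed and 1 as stronger. Leaving out 1 mouse nevertheless turned some directions. Without DEP mouse 835435 the median after DEP went from −0.08 to 0.03 over the 63 genes and from −0.04 to 0.03 over the 22. Rpl13a after DEP went from −0.14 to 0.02 without that mouse. Without CB mouse 47 the median of the 63 after CB went from −0.03 to 0.02. Aquantile normalisation left the ratios as they were, and the comparison of both particle groups has no fit on the compared groups alone. No paired analysis was possible because the groups share no mouse numbers. For the 43 often saturated genes the scanner maximum limits what the arrays show.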

Other observations

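Spots dim in both channels, more than 10-fold below the gene's median signal in each, were seen 11 times among the 65 genes, in 10 genes and on 5 arrays. DEP mouse 55 held those of Rpl13a, Rpl15, Rplp0 and Rplp1, and CB mouse 835436 those of Rpl7a, Rpl28 and Rps23. Over the 22 measured members, DEP mouse 835435 had the lowest ratio of its group 14 times, with a median of −1.54. CB mouse 48 had it 9 times (median −1.44) and air mouse 835433 9 times (median −1.43). CB mice 59 and 445 had the highest ratio 8 times each, air mouse 50 8 times and DEP mouse 56 10 times.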
